A study of Homo sapiens with 4 samples.

Results

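Methionine is activated to S-adenosylmethionine (SAM), spent as a methyl donor or for polyamine synthesis, and rebuilt from what is left. Transcripts of 10 enzymes of these routes (MTAP, MAT2A, MAT2B, AHCY, MTR, MTRR, AMD1, SRM, SMS and ODC1) were examined in UMSCC74B, an established cell line that the labels give as head and neck squamous cell carcinoma (HNSCC). The enzymes were taken by gene name. Each had 1 row in every table, among 29655 gene names, and 9 of the 10 had a count in any library.

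The 4 libraries came from total RNA. In the control group, 2 libraries were from wild-type UMSCC74B cells given control shRNA, and in the PRMT5 KD group 2 libraries were from the same line given PRMT5 shRNA, all collected after 72 h. PRMT5 is the main enzyme that dimethylates arginine symmetrically, with SAM as its methyl donor. The labels state that shRNA plasmids were transfected, and the methods of the paper state that lentiviral particles were used. All libraries are from 1 line, and no source used here states whether the replicates of a group are separate cultures, so the p-values measure only the spread between these libraries.

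Totals were 52185289 to 65964558 estimated counts per library, with ribosomal RNA at 14.2% and 15.3% of counts in control against 18.0% and 26.2% under the PRMT5 KD label. The PRMT5 transcript went against its label. The paper reports that an immunoblot bore out the silencing of PRMT5 by its shRNA, and protein is not measured in these libraries. The transcript stood at 94.3 and 84.2 CPM in control and rose to 132 and 150 CPM where the label is PRMT5 KD (log2 fold change 0.66, standard error 0.12, FDR = 0.00547). CPM here means counts per 1000000 counts over the genes tested, after TMM scaling, which sets the libraries to a common scale by a trimmed mean, and FDR is the edgeR p-value adjusted over all genes tested. That call was lost without control replicate 2 (0.58, FDR = 0.0666), and every direction below is by the labels. Markers of squamous epithelium were nearly absent: of 8 listed, only TP63 was high enough to be tested, and the list summed to between 4.56 and 7.92 CPM per library. TP63 fell under the PRMT5 KD label (log2 fold change -1.35, FDR = 0.0111). Untested and at low counts, KRT17 went from 5 and 6 counts to 53 and 71, KRT14 from 0 and 0 to 11 and 22. SFN went from 3 and 5 counts to 28 and 86. KRT5, which had 0 counts in both control libraries, KRT6A, CDH1 and EPCAM overlapped between the groups. All 6 fibroblast markers (COL1A1, COL1A2, COL3A1, DCN, LUM and PDGFRB) were present and fell under the PRMT5 KD label, their sum going from 629 and 727 CPM to 87.6 and 97.2 CPM. Of the 4 endothelial markers PECAM1 was tested and fell. Of the 5 leukocyte markers CD68, which is a lysosomal protein of many cell types, was tested and rose, and CD3E had no count in any library. The part of these marker changes in the results below was not tested.

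MTAP cleaves methylthioadenosine, the by-product of polyamine synthesis, and so starts the return of its sulfur to methionine. MAT2A is the catalytic subunit that makes SAM outside the liver, and MAT2B is its regulatory subunit. AHCY splits S-adenosylhomocysteine, the product that every SAM-dependent methyl transfer leaves behind, and MTR, kept active by its reductase MTRR, turns the resulting homocysteine into methionine. On the polyamine side, ODC1 makes putrescine from ornithine, AMD1 decarboxylates SAM, and SRM and SMS use decarboxylated SAM to build spermidine and spermine. MTAP lies beside CDKN2A on the short arm of chromosome 9, a stretch often lost in tumours, and methylthioadenosine, which builds up in cells without MTAP, inhibits PRMT5.

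MTAP was not detected in these cells. It had 0 counts in control replicate 1, control replicate 2, and both libraries labelled PRMT5 KD. A count of 0 allows up to 3 counts, or at most 0.0126, 0.00994, 0.0104 and 0.0104 RPKM in these libraries in that order. RPKM here means reads per kilobase of the gene's canonical transcript and 1000000 reads after TMM scaling, and this limit covers counting error only. The other 9 enzymes stood between 13.4 and 102 RPKM in the same libraries. Absence over all 4 libraries was shared by 2066 of 18923 protein-coding gene names (10.9%). MTAP lies on the plus strand at chr9:21802636-21937651 of GRCh38. The sequence around its annotated start, at chr9:21802566-21802685, is shown because no library held a count of the transcript that begins there:

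MTAP: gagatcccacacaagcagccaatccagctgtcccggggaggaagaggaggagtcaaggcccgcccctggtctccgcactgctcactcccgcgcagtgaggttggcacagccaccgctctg

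The genes next to MTAP on the centromere side were also without counts. CDKN2A, which encodes the cell cycle inhibitors p16 and p14ARF, and CDKN2B, which encodes p15, had 0 counts in all 4 libraries. Both lie on the minus strand. The nearer edge of CDKN2A is 30.1 kb beyond the end of MTAP. From the start of MTAP to the far edge of CDKN2B the stretch covers 206.7 kb. The antisense RNA CDKN2B-AS1 had 4 counts in control replicate 2 and 0 in the other 3 libraries. These 4 were the only matched gene names in the 886.9 kb between MIR31HG and DMRTA1. Genes on both sides were expressed. On one side the control libraries held 468 and 510 counts of DMRTA1, and the libraries labelled PRMT5 KD 431 and 398. On the other side the ubiquitin ligase adaptor KLHL9 was at 3335 and 4439 counts in the control libraries, next to 3142 and 3726 in those labelled PRMT5 KD. Neither was called (log2 fold change -0.34 with FDR = 0.118, and -0.27 with FDR = 0.113). The interferon gene IFNE fell from 17.7 and 12.9 CPM to 1.26 and 2.13 CPM (log2 fold change -3.17, standard error 0.30, FDR = 0.00062). IFNE lies inside the span of the noncoding RNA MIR31HG, so reads of the pair may have been shared. For MIR31HG itself the controls held 2103 and 2934 counts, against 569 and 508 with the PRMT5 KD label. Over the 33 matched gene names from MLLT3 to ELAVL2, 15 had 0 counts in all 4 libraries, most of them interferon alpha genes and microRNAs on the telomere side. DNA copy number was not measured in these libraries.

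**Figure D1:**
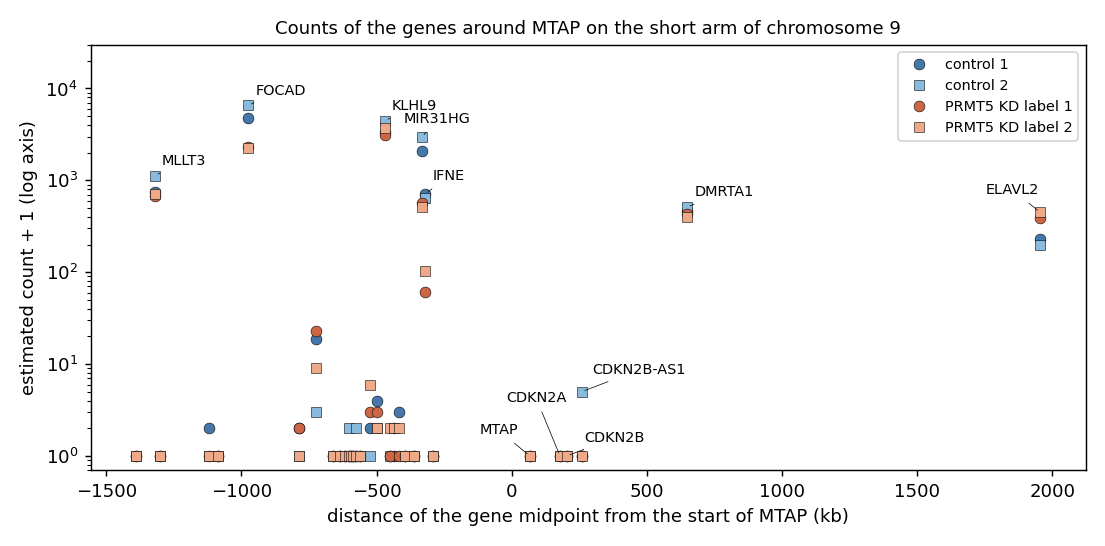
Estimated count plus 1 (log axis) of each matched gene name from MLLT3 to ELAVL2, by the distance in kb of the gene's midpoint from the start of MTAP, with 1 point for each of the 4 libraries. MTAP, CDKN2A and CDKN2B sit at 0 counts in all libraries between MIR31HG and DMRTA1, which have 398 counts or more in each.

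The levels of the other enzymes were compared per kilobase. In control the order of mean RPKM was MAT2A at 99.3 ± 3.23, AHCY at 48.2 ± 0.448, AMD1 at 37.2 ± 1.70, SRM at 24.4 ± 2.57, SMS at 22.5 ± 0.89, MAT2B at 20.0 ± 1.33, ODC1 at 16.2 ± 3.81, MTRR at 16.0 ± 0.563 and MTR at 13.9 ± 0.799 (SD, n = 2). SRM and SMS overlapped in their RPKM between libraries. ODC1 overlapped both MTRR and MTR, which did not overlap each other. Under the PRMT5 KD label AHCY (87.7 ± 5.55 RPKM), MAT2A (80.2 ± 12.1 RPKM) and ODC1 (75.3 ± 18.4 RPKM) led and overlapped each other. SRM, AMD1 and SMS followed with means from 51.8 to 60.7 RPKM. ODC1 also overlapped SRM and AMD1, and in PRMT5 KD replicate 2 it lay below SRM (62.3 against 63.7 RPKM). MAT2B, MTRR and MTR came last, at 28.2, 22.8 and 14.6 RPKM.

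**Figure D2:**
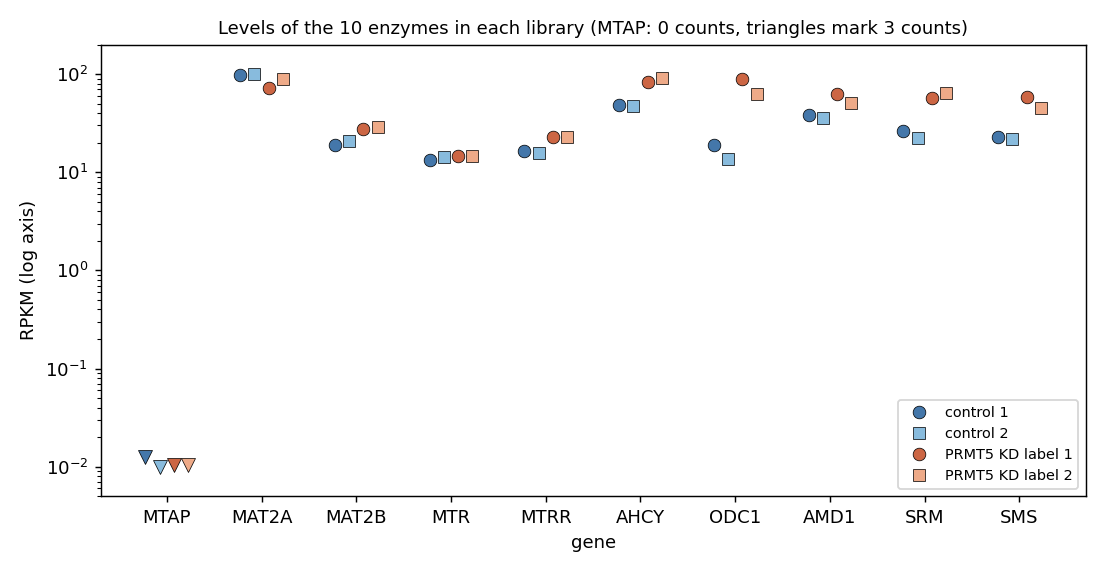
RPKM (log axis) of the 10 enzymes in each of the 4 libraries, with triangles for MTAP at the limit that 0 counts allow. ODC1, SRM, SMS, AMD1 and AHCY lie higher in both libraries labelled PRMT5 KD, while MAT2A is slightly lower and the limits for MTAP lie far below the rest.

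To compare the groups, estimated counts of all protein-coding genes were tested with edgeR. Calls required both an FDR below 0.05 and a log2 fold change of at least 0.5 in either direction. Of the 9 enzymes tested, 6 were called, all higher under the PRMT5 KD label, which were ODC1, SRM, SMS, AHCY, AMD1 and MTRR. Among all 11897 genes tested, 45.5% were called, 21.2% higher and 24.3% lower. The median log2 fold change of the 9 was 0.61, against -0.0074 over all genes. Above 0 lay 8 of the 9, beside 5884 of all 11897 genes tested. The groups did not overlap in CPM for any of the 9, as was so for 80.5% of all genes tested.

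Among the polyamine enzymes, the largest change was in ODC1, the rate-limiting and short-lived enzyme that opens the pathway. It had 46.8 and 33.5 CPM in control and 219 and 154 CPM under the PRMT5 KD label. Both labelled libraries were above both controls, with more spread within each group than for the other enzymes. ODC1 was thus 4.65-fold higher, or 2.22 on the log2 scale with a standard error of 0.24 (FDR = 0.00124). ODC1 lies on the minus strand at chr2:10439968-10448327.

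SRM, the spermidine synthase, stood at 33.1 and 28.5 CPM in control and at 72.6 and 80.3 CPM under the PRMT5 KD label, higher by 1.31 on the log2 scale (standard error 0.13, FDR = 0.000605). SMS, the spermine synthase, stood at 39.5 and 37.3 CPM in control and at 98.9 and 77.5 CPM under the PRMT5 KD label, higher by 1.20 on the log2 scale (standard error 0.15, FDR = 0.00118). For both synthases the groups were far apart relative to the spread within them. SRM lies at chr1:11054584-11060020 (minus strand) and SMS at chrX:21940709-21994837 (plus strand).

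AMD1, which supplies the aminopropyl donor to both synthases, rose less. It had 131 and 123 CPM in control and 213 and 175 CPM under the PRMT5 KD label, higher by 0.61 on the log2 scale (standard error 0.13, FDR = 0.00996). The call was lost without control replicate 1 (0.66, FDR = 0.0608), without control replicate 2 (0.57, FDR = 0.0955) and without PRMT5 KD replicate 1 (0.49, FDR = 0.0105). AMD1 lies on the plus strand at chr6:110874770-110898879.

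On the methyl side neither subunit of the SAM synthetase was called. MAT2A had 273 and 286 CPM in control and 202 and 250 CPM under the PRMT5 KD label, lower in both labelled libraries, but the difference of -0.31 on the log2 scale (standard error 0.14) did not pass the test (FDR = 0.109). Without PRMT5 KD replicate 2 it was -0.47 (FDR = 0.0194) and without PRMT5 KD replicate 1 it was -0.13 (FDR = 0.469). MAT2B had 39.4 and 43.2 CPM in control and 57.0 and 59.6 CPM under the PRMT5 KD label. Its log2 fold change of 0.497 (standard error 0.11, FDR = 0.0113) passed the FDR and fell just short of the fold threshold. It was 0.44 without control replicate 1 and 0.57 without control replicate 2. Without PRMT5 KD replicate 1 it was 0.56, and without PRMT5 KD replicate 2 it was 0.47. The FDR limit was met when a PRMT5 KD replicate was left out and missed when a control replicate was left out. MAT2A lies at chr2:85539168-85545281 and MAT2B at chr5:163503114-163519558, both on the plus strand.

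AHCY rose from 104 and 103 CPM to 180 and 197 CPM, by 0.86 on the log2 scale (standard error 0.11, FDR = 0.00138). The control libraries differed by about 1 CPM and the labelled libraries by 17 CPM, so the difference of 85 CPM between the means was well beyond the spread. AHCY lies on the minus strand at chr20:34280268-34311802.

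Of the pair that rebuilds methionine, MTR showed no change that could be told from the spread, and its reductase MTRR rose slightly. MTR had 141 and 153 CPM in control and 155 and 153 CPM under the PRMT5 KD label (log2 fold change 0.07, standard error 0.11, FDR = 0.60). MTRR had 53.3 and 50.8 CPM in control and 74.5 and 73.7 CPM under the PRMT5 KD label. Its change of 0.51 on the log2 scale (standard error 0.11, FDR = 0.00787) lay just inside the threshold that MAT2B missed. The MTRR call was lost without control replicate 1 (0.55, FDR = 0.0501) and without control replicate 2 (0.48, FDR = 0.0769). After a correction for trends of fold change with exon length and GC content, MTR, which has a long transcript, stood at 0.51 and was called (FDR = 0.0103). MTR lies at chr1:236795260-236921278 and MTRR at chr5:7851186-7906025, both on the plus strand.

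**Figure D3:**
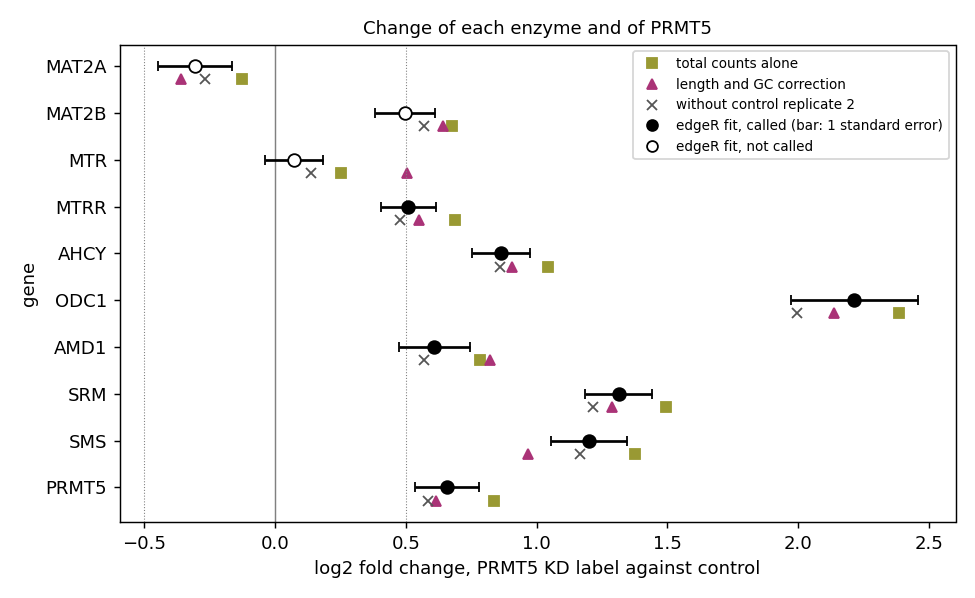
Log2 fold change (PRMT5 KD label over control) of each of the 9 tested enzymes and of PRMT5, with bars of 1 standard error and filled points for called genes, beside the values under scaling by total counts, the length and GC correction and the fit without control replicate 2. ODC1 (2.22), SRM (1.31) and SMS (1.20) lie farthest to the right, and MAT2A is the only enzyme below 0.

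Ratios of transcripts within a library do not depend on scaling between libraries, and they were taken for 8 pairs chosen after the values had been seen. With 2 libraries against 2, an exact permutation test cannot give a two-sided p below 0.333, so the ratios are given as values. Separation of the groups in pairs chosen this way is not a test. The share of other gene pairs whose ratios separate was not computed, and 80.5% of single genes tested did not overlap in CPM. ODC1 against OAZ1, the antizyme that directs ODC1 protein to the proteasome, was 0.126 and 0.0864 in control, against 0.55 and 0.434 with the PRMT5 KD label. MAT2B against MAT2A was 0.144 and 0.151 in control, against 0.282 and 0.238 with the PRMT5 KD label. Both ratios were higher in each labelled library than in either control. AHCY against MAT2A was 0.382 and 0.36 in control, against 0.892 and 0.788 with the PRMT5 KD label. SRM against SMS overlapped between the groups, at 0.838 and 0.763 in control, against 0.734 and 1.04 with the PRMT5 KD label. ODC1 against AMD1 was 0.356 and 0.272 in the control libraries and higher in both labelled libraries, at 1.02 and 0.88. The other 3 ratios were lower in each labelled library than in either control. MTR against MTRR went from 2.64 and 3.01 to 2.08 and 2.08, AMD1 against SRM from 3.98 and 4.33 to 2.94 and 2.18, and NNMT against AHCY from 1.73 and 1.64 to 0.271 and 0.28.

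**Figure D4:**
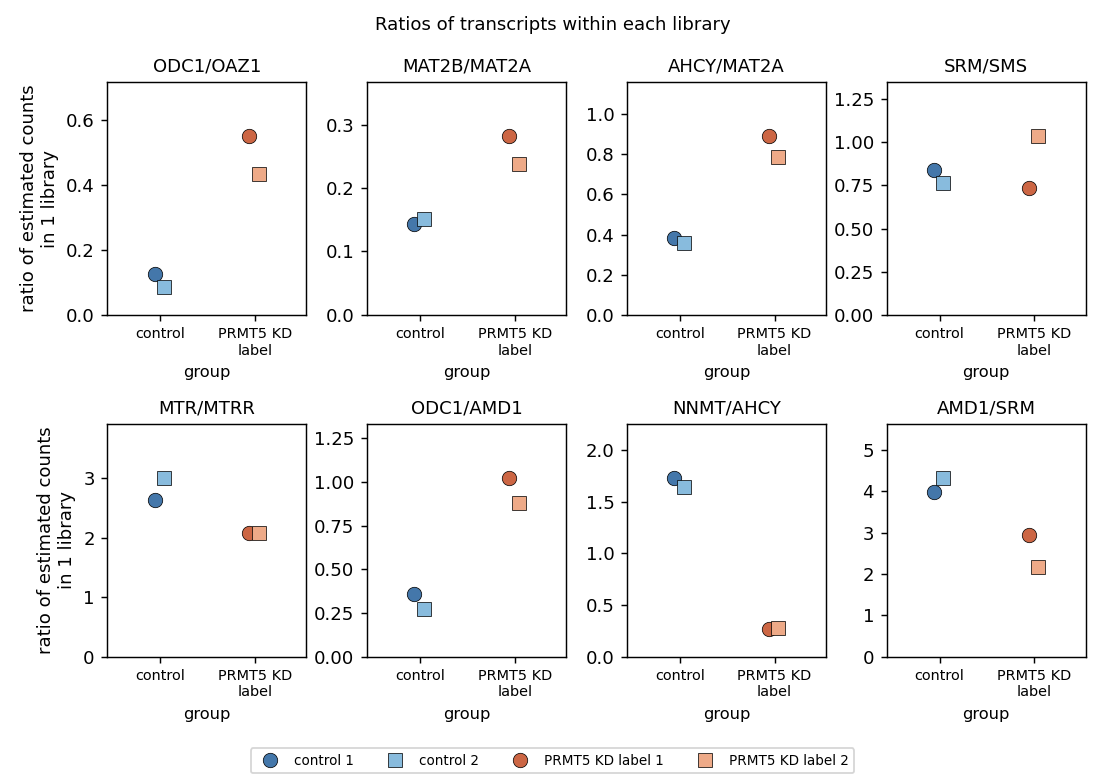
Ratio of estimated counts within each of the 4 libraries for the 8 pairs, 1 panel per pair, by group. In both libraries labelled PRMT5 KD, ODC1/OAZ1, MAT2B/MAT2A, AHCY/MAT2A and ODC1/AMD1 lie above both controls, MTR/MTRR, AMD1/SRM and NNMT/AHCY lie below them, and SRM/SMS overlaps.

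ODC1 and SRM are known targets of the transcription factor MYC, which binds the E-box CACGTG. MYC itself had 75.7 and 54.2 CPM in control and 118 and 109 CPM under the PRMT5 KD label (log2 fold change 0.80, standard error 0.17, FDR = 0.00977), a call that was lost without control replicate 2 (0.59, FDR = 0.0553). Its partner MAX rose by 0.64 (standard error 0.11, FDR = 0.00324). Promoter windows of 300 bases (250 before and 50 after a start) from RefSeq on GRCh38.p14 were found for 9 of the 10 enzymes, all but MTRR, in 16 windows. CACGTG, which reads the same on both strands, occurred in 2 of the 16 windows, 1 of SRM and 1 of ODC1. It occurred in 7.26% of all 35116 windows and in at least 1 window of 8.77% of all gene symbols. The stretches that hold it are shown 5′ to 3′, the motif in capitals. SRM is at chr1:11060172-11060257, with the motif 199 bases before the start. ODC1 is at chr2:10447963-10448081, with motifs 29 bases before and 5 bases after a downstream start. Both are on the minus strand. AHCY, AMD1 and SMS, also called higher, had no match in their windows. Among all genes tested, 21.2% were called higher, as MYC and MAX were. A match of letters is not evidence that MYC was bound in these cells, and any part of MYC in the changes of these enzymes was not tested.

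SRM: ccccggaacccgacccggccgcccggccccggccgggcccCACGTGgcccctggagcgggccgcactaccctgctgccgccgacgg
ODC1: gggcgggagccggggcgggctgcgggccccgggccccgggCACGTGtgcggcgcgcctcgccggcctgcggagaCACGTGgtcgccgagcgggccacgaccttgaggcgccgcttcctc

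Another 58 genes tied to these routes by function or, for the neighbours of MTAP, by position were listed by name, and 50 of them were tested. Of these, 12 were called higher and 13 lower, and their median was 0.13 on the log2 scale over all 50. The share called was close to the 45.5% of all genes tested, and without control replicate 2 the 25 calls fell to 14. The 4 enzymes listed that act after MTAP in methionine salvage were all expressed. ENOPH1 rose by 0.58 (FDR = 0.0059) and ADI1 by 0.58 (FDR = 0.0105), while MRI1 (0.12) and APIP (0.02) were not called. ADI1 lost its call without control replicate 2 (FDR = 0.0963) and ENOPH1 without control replicate 1 (FDR = 0.0595), without control replicate 2 (FDR = 0.0557) and after the length and GC correction (0.34).

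Genes that use the products of the polyamine route included those for eIF5A, the translation factor that carries hypusine, an amino acid made from spermidine. Of the 4 genes listed, 3 were called higher beside 21.2% of all genes, and the fourth, DHPS, had a log2 fold change of 0.32. DOHH, the hydroxylase that completes hypusine, rose from 10.3 and 8.39 CPM to 29.8 and 25.3 CPM (log2 fold change 1.56, standard error 0.17, FDR = 0.00078). EIF5A rose from 317 and 295 CPM to 602 and 640 CPM (1.02, FDR = 0.00132) and its paralog EIF5A2 from 70.5 and 73.8 CPM to 159 and 165 CPM (1.17, FDR = 0.00051). EIF5A has near-identical copies in the genome and its counts carry decimals, so its level is less certain. None of the 3 tested antizyme and antizyme inhibitor genes was called, with OAZ1 at -0.01, AZIN1 at 0.26 and OAZ2 at 0.32. Of the enzymes that break polyamines down, SMOX, which oxidizes spermine, rose by 0.74 (FDR = 0.00363), and PAOX, which oxidizes acetylated polyamines, fell by 1.57 on the log2 scale (FDR = 0.00103). SAT1 (-0.13) and SAT2 (-0.49) were not called. ARG2, which makes ornithine, the substrate of ODC1, fell by 1.12 on the log2 scale (FDR = 0.00279), OAT (-0.29) was not called, and ARG1 had 0 counts in all libraries.

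A list drawn around homocysteine and adenosine removal had 7 tested genes. It also holds NNMT, AHCYL1 and AHCYL2, which do not remove either, so its count and median do not describe removal. Of the 7, 4 were called lower and 0 higher, beside 24.3% of all genes called lower. The median over the 7 was -0.51 on the log2 scale, which is the value of AHCYL2. The uncalled 3 were BHMT2 (0.30), a relative of the homocysteine methyltransferase BHMT, ADK (0.25), which phosphorylates adenosine, and CTH (0.14), which acts after CBS. Of the 4 called lower, only CBS acts on homocysteine itself. NNMT, which uses SAM to methylate nicotinamide, fell from 181 and 169 CPM to 48.9 and 55.1 CPM (log2 fold change -1.75, standard error 0.12, FDR = 0.00029). AHCYL1 and AHCYL2, relatives of AHCY that bind and regulate other proteins, fell by 0.91 (FDR = 0.00116) and 0.51 (FDR = 0.0235) on the log2 scale, and CBS, which draws homocysteine into cysteine synthesis, fell by 0.92 (FDR = 0.0349). AHCYL2 was called in only 7 of 16 alternative fits. The losses included those without control replicate 1 (-0.55), without control replicate 2 (-0.47) and without PRMT5 KD replicate 2 (-0.41). Its call was also lost under scaling by total counts (-0.34), with other filters, with all gene names and with the length and GC correction (-0.43). The CBS call was lost without control replicate 1 (FDR = 0.144), without control replicate 2 (FDR = 0.107) and after the length and GC correction (-0.70, FDR = 0.0829). Without PRMT5 KD replicate 1 the CBS value was -1.36, and without PRMT5 KD replicate 2 it was -0.56. Among the 3 genes of SAM synthesis and control, MAT1A, the liver SAM synthetase, fell from a low level, at 4.80 and 5.40 CPM in control and 1.93 and 2.53 CPM under the PRMT5 KD label (-1.19, FDR = 0.00759). Its call was lost without control replicate 1 (FDR = 0.0524) and without control replicate 2 (FDR = 0.086). METTL16, which acts on MAT2A mRNA, and the mitochondrial SAM carrier SLC25A26 were not called (-0.21 and 0.23).

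Of the genes that supply folate one-carbon units, MTHFD1 rose by 0.93 (FDR = 0.00171) and MTHFD2, its mitochondrial relative, by 0.89 (FDR = 0.0175). MTHFD2 lost its call without control replicate 2 (0.67, FDR = 0.11). Among the 5 genes of cobalamin supply, which MTR needs as a cofactor, MMADHC rose by 0.64 (FDR = 0.00599). LMBRD1, a lysosomal membrane protein, fell by 1.17 on the log2 scale (FDR = 0.00119). ABCD4 (-0.33), CD320 (0.25) and MMACHC (0.19) were not called. MMADHC lost its call without control replicate 2 (FDR = 0.0731) and after the length and GC correction (0.40). Of the 6 transporter genes, 3 were called lower and 0 higher, beside 24.3% of all genes called lower. SLC43A2, an amino acid transporter, fell by 1.22 (FDR = 0.00157) and the lysosomal polyamine exporter ATP13A2 by 0.97 (FDR = 0.00785) on the log2 scale. SLC3A2, the heavy chain of the methionine transporter formed with SLC7A5, fell by 0.61 on the same scale (FDR = 0.0173). SLC7A5 itself (-0.08), ATP13A3 (0.20) and SLC18B1 (0.30) were not called. ATP13A2 lost its call without control replicate 2 (FDR = 0.0715). SLC3A2 lost its call without control replicate 1 (-0.45, FDR = 0.134), without control replicate 2 (FDR = 0.0502), under scaling by total counts (-0.43) and with the length and GC correction (-0.48).

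**Figure D5:**
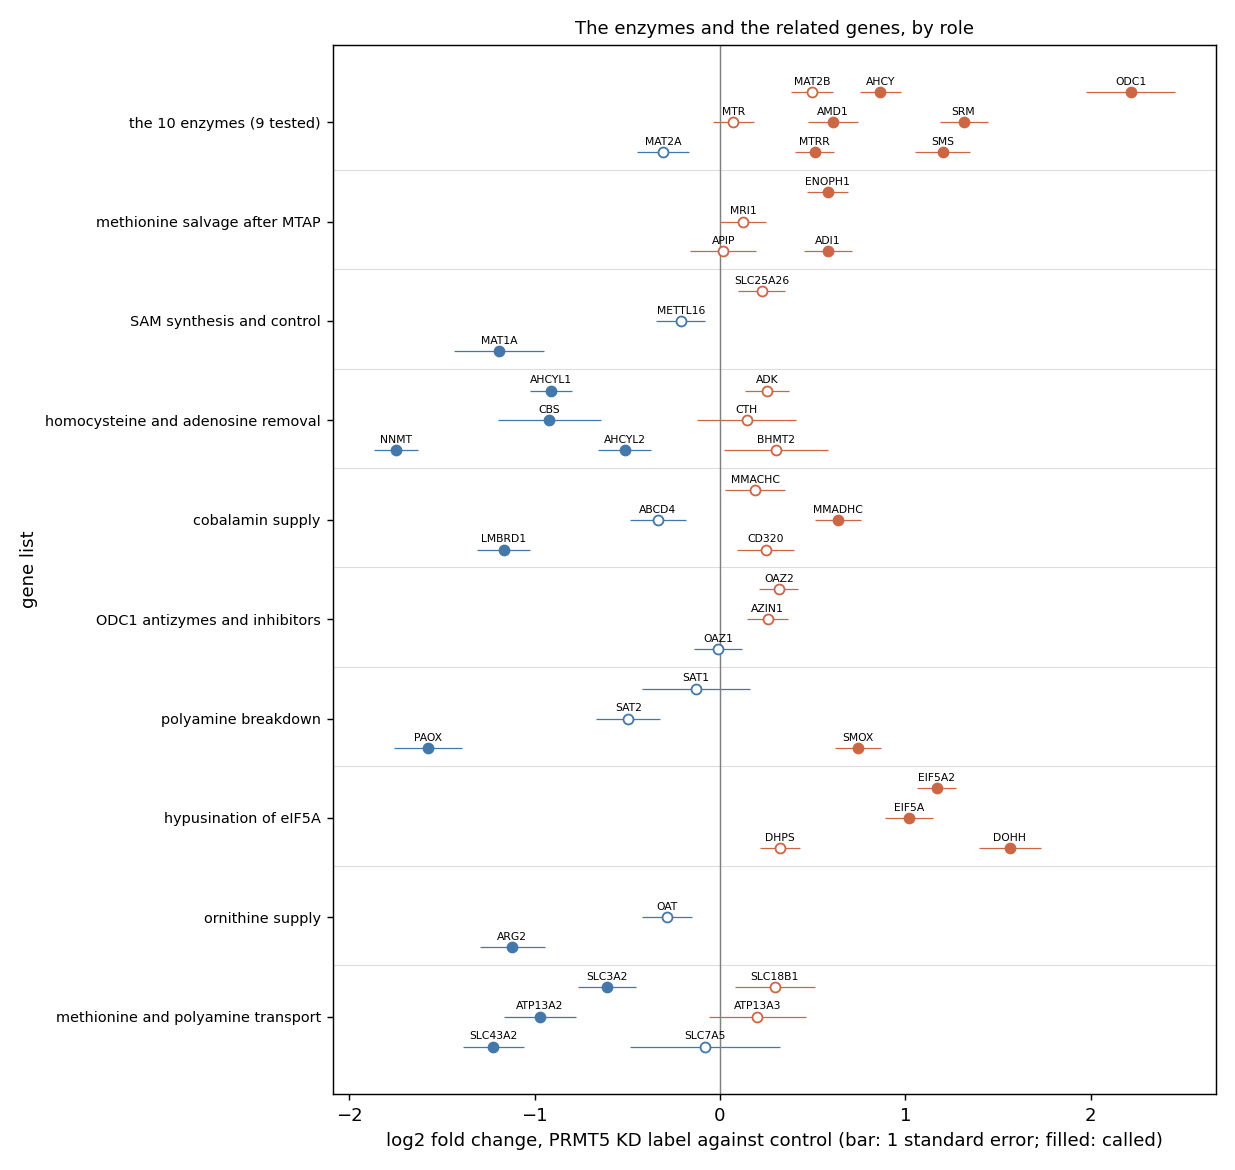
Log2 fold change (PRMT5 KD label over control) of the 9 tested enzymes and of the tested genes of 9 related lists, 1 row per list, with bars of 1 standard error and filled points for called genes. The synthesis enzymes and the eIF5A genes lie mostly to the right of 0, while NNMT (-1.75), PAOX (-1.57) and SLC43A2 (-1.22) lie to the left.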

How the data were processed

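RNA-seq of 2 control libraries and 2 libraries labelled PRMT5 KD was analysed. The authors deposited estimated counts per gene, 1 table per library, without normalization. The submitters' processing notes list FastQC, Trim Galore, STAR, Salmon, DESeq2 and GRCh38, whereas the paper's methods count reads with FeatureCounts on a Gencode protein-coding set. The tables hold RefSeq-style symbols and decimals, with 86.0% to 86.8% whole values. How reads were assigned by strand is not given in the sources used here. Totals on protein-coding genes were 41972440 to 53688957 counts.

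Rows of 1 name were summed and 28 names turned into dates were left out (0.150% to 0.161% of counts). Coordinates and lengths come from GENCODE 44 (GRCh38), matched by name. Of the values of the 10 enzymes above 0, 35 of 36 were whole within 0.01. Counts were rounded. The test took in 11897 protein-coding genes whose RPKM on union exon length reached 0.5 in both libraries of either group. All 9 enzymes with counts passed, and MTAP did not. Libraries were scaled by TMM and compared with the quasi-likelihood test of edgeR 4.0.16 in R 4.3.3, with robust dispersion, no replicate term and with p-values adjusted by Benjamini-Hochberg across the 11897 genes (FDR). The standard error is the size of the log2 fold change over the square root of F. CPM is counts per 1000000 TMM-scaled counts over the genes tested. RPKM values in the text use the canonical transcript length, so they depend on that choice of transcript.

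The same-numbered libraries were not treated as pairs. The procedure was tested on simulated data. Alternatives were DESeq2 1.42.0, other scalings, filters, gene sets and dispersion, a block for replicate number, an offset fitted on splines of length and GC (4 degrees of freedom each), other fold thresholds and each library left out. The genes named are the 10 enzymes, PRMT5, all 9p21 neighbours on the list and the called related genes, with uncalled ones for contrast. Some folate genes are counted in the totals and are not reported here. The gene lists came from general knowledge. The enzymes and lists were chosen with earlier results of these data known. AZIN2 had no row of that name.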

Additional observations from a re-analysis of the deposited data

How the results depend on the processing

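The crossed pairing was chosen after the data had been seen. ODC1 (1.97 to 2.48), SRM (1.22 to 1.49), SMS (0.96 to 1.38) and AHCY (0.80 to 1.05) kept their direction and call under all 16 refits at the fold threshold of 0.5, and MTRR and AMD1 under the 12 that kept all libraries. None of the 35 genes refitted (the 9 enzymes, the 25 called related genes and PRMT5) changed sign. MAT2A stayed below 0 (-0.47 to -0.12) and uncalled. With total counts alone the median of all genes moved to 0.17 and 61.5% of calls were higher (3509 and 2200), against 46.5% (2522 and 2896), and every enzyme moved up by about that shift. MAT2B was called under 9 of the 16 and MTR under 2, both with the length and GC correction. The 6 called enzymes became 3 at a fold threshold of 1, all higher, and the 5418 called genes became 2560, by construction. With 1 library left out, called genes ranged from 3105 to 5724, called enzymes from 4 to 6, all higher (4 to 6), and called related genes from 14 to 28, with the lowest counts of genes and of related genes without control replicate 2. Fits with 3 libraries assume that the lone library varies like the other group. Deviations of same-numbered libraries had a correlation of -0.101. A replicate block gave 5185 called genes and 6 called enzymes, and the crossed pairing 5486 and 6, without a changed call among the enzymes. The MTAP limit of 0.0126 RPKM was 0.0119 with total counts alone. Depth limits the MTAP result to 3 counts per library.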
